A study of Arabidopsis thaliana with 24 samples.

Results

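Protein-folding co-chaperones were followed through the first hours of light through 3 genes of Arabidopsis thaliana: AT5G48570, which encodes the FKBP-type immunophilin FKBP65, also called ROF2, and the DnaJ genes AT2G20560 and AT1G71000. They were picked by name because earlier results of the same arrays had shown changes in them, so their levels and differences are described here without a test. Each had 1 probe set named for it alone, so 3 probe sets of the 22217 on the array, and 3 of 12983 genes with a probe set of their own, are described. All seedlings were Col-0, 4 days old and grown in darkness. Whole seedlings were sampled in the dark (0 min) or after 30 or 120 min of light of 120 µmol m-2 s-1 at 22 °C. Wild type (wt) was set beside 3 mutants: fc1-1 and fc2-1, written fc1 and fc2 here, carry mutations in the ferrochelatase genes FC1 and FC2, and flu in a gene for a brake on the tetrapyrrole pathway. The 24 arrays made 12 groups, with a pair of biological replicates, by their labels, for every genotype at every time. The labels say no more of where the replicates came from, so a p-value speaks only to the spread among these arrays, whose number limits all precision.

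DnaJ proteins, also called J-domain proteins, bring client proteins to the chaperone HSP70 and stimulate its ATPase, which locks HSP70 onto the client. FKBPs are peptidyl-prolyl isomerases that speed a slow step of protein folding, and FKBP65 carries FK506-binding domains and a tetratricopeptide-repeat region of the kind that docks onto HSP90. FKBP65 belongs to the heat-shock response of plants, which also includes the small heat-shock proteins, holdases that keep damaged proteins from aggregating. Ferrochelatase inserts iron into protoporphyrin IX to give haem, while flu builds up protochlorophyllide in darkness, a photosensitiser that gives singlet oxygen once lit.

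Levels are log2 RMA signals. Differences between group means are on the same log2 scale, ± the SE of a linear model that pools the spread of all 12 groups (n = 2 arrays per group). The medians of the arrays lay between 5.98 and 6.23 and the lower quartiles between 3.9 and 4.23, and replicates correlated at 0.9907 to 0.9986 across probe sets. No probe set was named for FC1, FC2 or FLU alone, so their levels were not used to check the genotypes. The mean log2 signal of 4 markers of seed or embryo RNA (OLEO3, PAP85, M10 and M17) ranged from 5.28 to 9.62 over the arrays, and it differed within groups, as in wt at 120 min (5.5 and 7.88) and fc1 at 30 min (8.84 and 5.57). The 4 markers did not move together, so their mean is no single measure of seed RNA. At 120 min OLEO3 was at 8.2 and 8.15 in wt and lower in flu (7.16 and 6.78). M17 was at 2.76 and 7.59 in wt and at 10.7 and 7.47 in flu. PAP85 (11.27) and M10 (9.33) also had their highest array in flu at 120 min. In whole seedlings, fewer cells of a type and less RNA per cell cannot be told apart.

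AT5G48570 was low in the dark and higher in every lit group except flu at 30 min. Its log2 signal in the dark was 4.01 and 3.95 on the 2 wt arrays, 4.43 and 4.01 in fc2, 4.46 and 4.70 in flu, and 4.49 and 4.46 in fc1. After 30 min the signal was 6.28 and 8.08 in wt, 7.83 and 8.02 in fc2, 4.48 and 4.40 in flu, and 7.81 and 8.32 in fc1. The flu arrays thus stayed in the range of the dark arrays, while the lit arrays of the other genotypes lay above all dark arrays. After 120 min the signal was 7.84 and 7 in wt, 9.29 and 8.95 in fc2, 7.85 and 8.10 in flu, and 8.28 and 8.92 in fc1. At that time every array of every genotype lay above all dark arrays.

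As changes from the dark, AT5G48570 differed by 3.2 ± 0.39 in wt (9.19-fold on the linear scale), 3.7 ± 0.39 in fc2 (13-fold) and 3.59 ± 0.39 in fc1 (12-fold) after 30 min, and by -0.14 ± 0.39 in flu. The sign of the small flu difference turned to 0.12 when the arrays were scaled to 2 reference genes. The wt value rests on unlike arrays, and it was 2.3 without replicate 2 at 30 min and 4.1 without replicate 1. After 120 min the changes were 3.44 ± 0.39 in wt (10.9-fold), 4.9 ± 0.39 in fc2 (29.9-fold), 3.4 ± 0.39 in flu (10.5-fold) and 4.12 ± 0.39 in fc1 (17.4-fold). Nearly the whole difference in flu therefore lay between 30 and 120 min, where its mean differed by 3.54 ± 0.39, against 1.2 ± 0.39 in fc2, 0.54 ± 0.39 in fc1 and 0.24 ± 0.39 in wt. In wt and fc1 the arrays of 30 and 120 min overlapped.

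The 12 group means of AT5G48570 fell into 7 high and 5 low ones. The highest was fc2 at 120 min (9.12), whose arrays lay above those of all other groups. Below it came fc1 at 120 min (8.6), fc1 at 30 min (8.06), flu at 120 min (7.97), fc2 at 30 min (7.92), wt at 120 min (7.42) and wt at 30 min (7.18), and neighbours among these overlapped. The low groups were flu in the dark (4.58), fc1 in the dark (4.47), flu at 30 min (4.44), fc2 in the dark (4.22) and wt in the dark (3.98), again with neighbours that overlapped or met.

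AT2G20560 was higher in every lit group than in the dark, flu at 30 min included. Its log2 signal in the dark was 5.33 and 5.49 in wt, 5.16 and 5.29 in fc2, 5.43 and 5.95 in flu, and 5.72 and 5.48 in fc1. After 30 min it was 7.77 and 8.85 in wt, 8.23 and 8.49 in fc2, 7.60 and 7.41 in flu, and 8.59 and 8.99 in fc1. The flu arrays were the lowest of that time and overlapped with no other genotype. After 120 min the signal was 7.01 and 6.82 in wt, 9 and 8.77 in fc2, 9.21 and 9.41 in flu, and 8.27 and 8.53 in fc1. The wt arrays were now the lowest and the flu arrays the highest, and no genotypes overlapped.

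As changes from the dark, AT2G20560 differed after 30 min by 2.9 ± 0.25 in wt (7.46-fold), 3.13 ± 0.25 in fc2 (8.78-fold), 1.81 ± 0.25 in flu (3.52-fold) and 3.19 ± 0.25 in fc1 (9.13-fold). After 120 min the changes were 1.5 ± 0.25 in wt (2.84-fold), 3.66 ± 0.25 in fc2 (12.6-fold), 3.62 ± 0.25 in flu (12.3-fold) and 2.8 ± 0.25 in fc1 (6.96-fold). From 30 to 120 min the mean was lower by 1.4 in wt and by 0.39 in fc1, with log2 differences of -1.4 ± 0.25 and -0.39 ± 0.25, and higher by 0.52 ± 0.25 in fc2 and 1.8 ± 0.25 in flu. The arrays of the 2 times did not overlap in any genotype.

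In order, the means of AT2G20560 were 9.31 in flu at 120 min, 8.88 in fc2 at 120 min, 8.79 in fc1 at 30 min, 8.4 in fc1 at 120 min, 8.36 in fc2 at 30 min, 8.31 in wt at 30 min, 7.5 in flu at 30 min and 6.92 in wt at 120 min. The dark groups followed with 5.69 in flu, 5.6 in fc1, 5.41 in wt and 5.22 in fc2. Among neighbours in the lit groups, fc2 at 120 min overlapped with fc1 at 30 min, and fc1 at 120 min with fc2 at 30 min. Likewise, fc2 at 30 min overlapped with wt at 30 min, and no other lit neighbours did. In the dark, flu overlapped with fc1 and fc1 with wt, whereas wt and fc2 did not overlap.

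AT1G71000 differed from its dark level by more than 1 on the log2 scale at 120 min in the 3 mutants, and by less in all other lit groups. Its log2 signal in the dark was 4.03 and 3.94 in wt, 3.78 and 3.99 in fc2, 4.14 and 3.95 in flu, and 3.81 and 3.73 in fc1, near the lower quartile of the arrays. After 30 min it was 4.41 and 4.41 in wt, 4.19 and 4.74 in fc2, 4.31 and 4.32 in flu, and 4.17 and 4.47 in fc1. Every array of 30 min lay above all dark arrays, by small margins at the low end of the signal range. After 120 min the signal was 3.97 and 4.45 in wt, 8.54 and 8.59 in fc2, 6.81 and 6.67 in flu, and 4.82 and 4.89 in fc1. The order fc2, flu, fc1, wt held without overlap.

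The change of AT1G71000 from the dark was 0.42 ± 0.16 in wt, 0.58 ± 0.16 in fc2, 0.27 ± 0.16 in flu and 0.55 ± 0.16 in fc1 after 30 min. After 120 min it was 4.68 ± 0.16 in fc2 (25.6-fold), 2.69 ± 0.16 in flu (6.48-fold), 1.08 ± 0.16 in fc1 (2.12-fold) and 0.22 ± 0.16 in wt, where the arrays overlapped with those in the dark. Without replicate 2 at 120 min the wt difference was -0.01. Between 30 and 120 min the means differed by 4.1 ± 0.16 in fc2, 2.42 ± 0.16 in flu, 0.54 ± 0.16 in fc1 and -0.2 ± 0.16 in wt.

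The order of the means of AT1G71000 began with fc2 (8.56), flu (6.74) and fc1 (4.86) at 120 min, each apart from the next. Then came fc2 (4.46), wt (4.41), flu (4.32) and fc1 (4.32) at 30 min, wt at 120 min (4.21), and in the dark flu (4.04), wt (3.98), fc2 (3.88) and fc1 (3.77). Of these 9 low groups only wt and flu at 30 min did not overlap as neighbours.

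**Figure D1:**
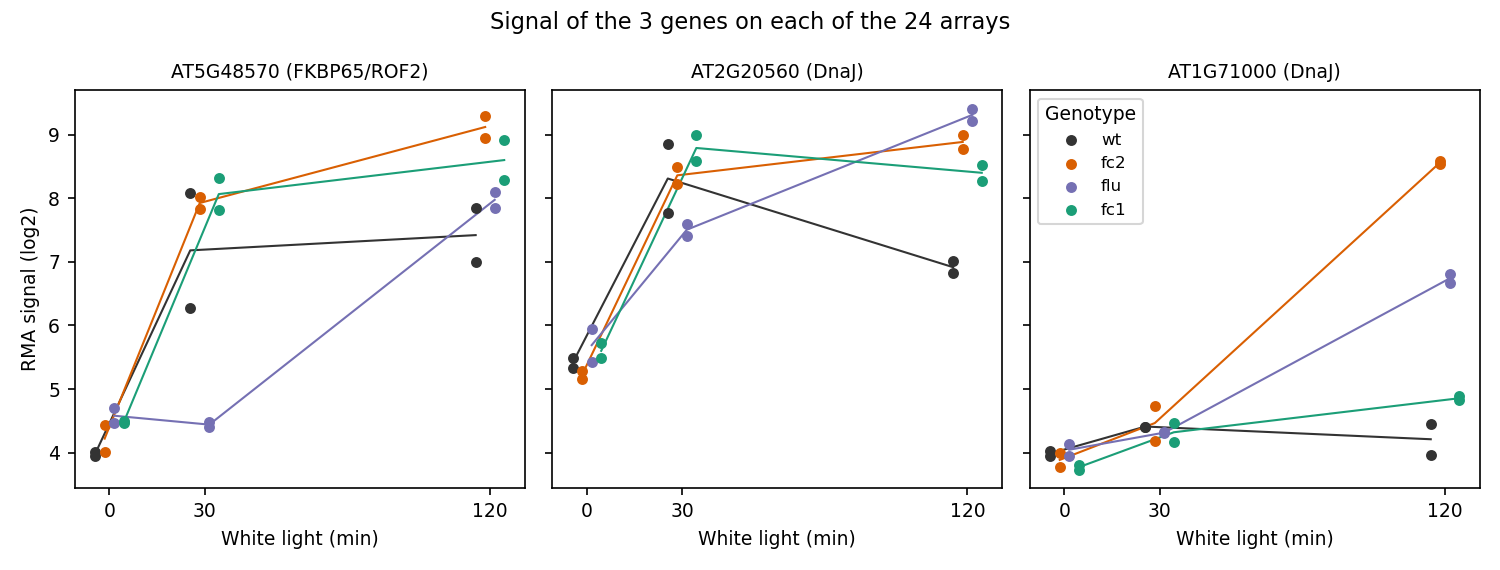
Log2 RMA signal (vertical axis) of AT5G48570, AT2G20560 and AT1G71000 against minutes of white light (horizontal axis), with a point for each of the 24 arrays and a line through the group means of each genotype. For AT5G48570 the flu arrays at 30 min (4.48 and 4.40) lie with the dark arrays, and for AT1G71000 the fc2 arrays at 120 min (8.54 and 8.59) lie above all others.

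**Figure D2:**
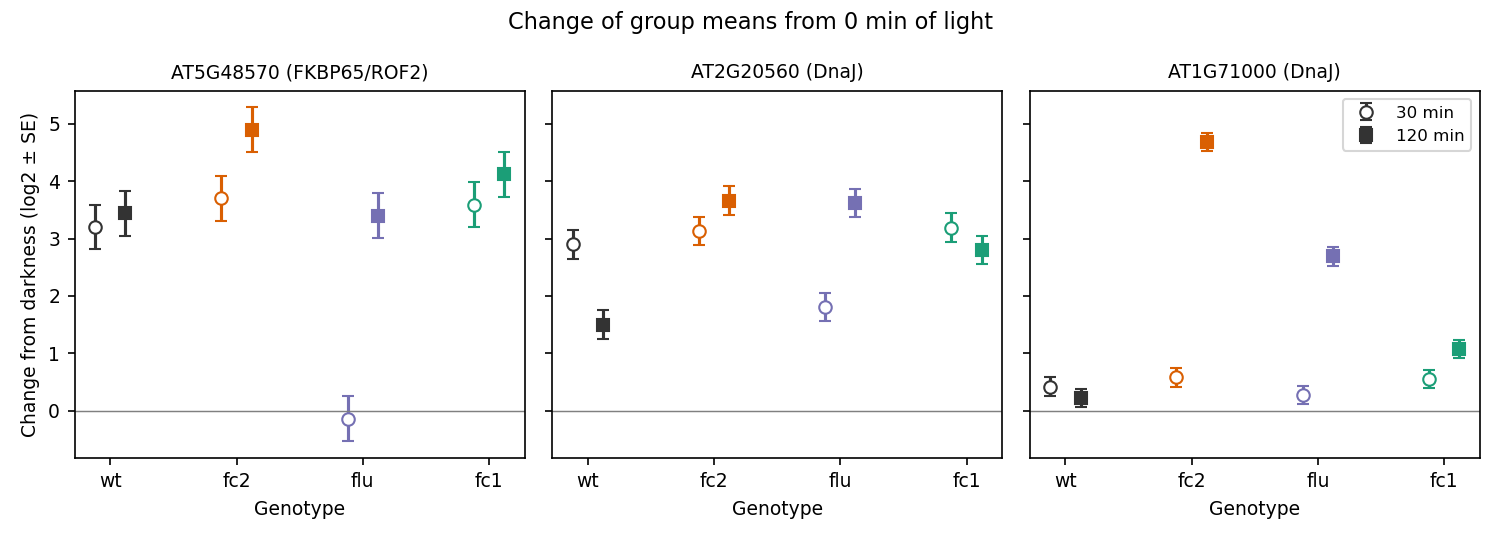
Log2 change of the group mean from 0 min (vertical axis) at 30 min (open circles) and 120 min (filled squares) in each genotype, with bars of ± 1 SE from the linear model. The 3 genes differ in timing: AT5G48570 has its late change in flu, AT2G20560 has a lower value at 120 than at 30 min in wt, and AT1G71000 has its large values at 120 min in fc2 and flu.

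The plot of signals by array and the plot of changes with their errors show that the genotypes spread apart at different times for the 3 genes. In the dark the differences from wt were small. AT5G48570 differed by 0.24 in fc2, where arrays met those of wt, and by 0.6 in flu and 0.5 in fc1 (each ± 0.39), without overlap. AT2G20560 differed by -0.18 in fc2, 0.28 in flu and 0.19 in fc1 (each ± 0.25), and AT1G71000 by -0.1, 0.06 and -0.22 (each ± 0.16).

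At 30 min, flu was below wt for both early genes. The log2 difference between flu and wt was -2.74 ± 0.39 for AT5G48570 and -0.8 ± 0.25 for AT2G20560, without overlap, and -0.1 ± 0.16 for AT1G71000. With reference-gene scaling the AT1G71000 difference was 0.17. The wt arrays of 30 min were unlike: replicate 1 lay below replicate 2 by 1.8 for AT5G48570 and by 1.08 for AT2G20560. Without wt replicate 2, the flu difference was -1.84 for AT5G48570 and -0.26 for AT2G20560, and without wt replicate 1 it was -3.64 and -1.34. The differences of fc2 and fc1 from wt at 30 min, 0.74 and 0.88 for AT5G48570 and 0.05 and 0.48 for AT2G20560, came with overlapping arrays. Without wt replicate 1 they were -0.16 and -0.01 for AT5G48570 and -0.49 and -0.06 for AT2G20560.

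At 120 min the mutants were above wt for all 3 genes. For AT1G71000 the log2 difference from wt was 4.36 ± 0.16 in fc2 (20.5-fold), 2.53 ± 0.16 in flu (5.78-fold) and 0.64 ± 0.16 in fc1 (1.56-fold). For AT2G20560 it was 1.97 ± 0.25 in fc2, 2.4 ± 0.25 in flu and 1.49 ± 0.25 in fc1. For AT5G48570 it was 1.7 ± 0.39 in fc2, 0.56 ± 0.39 in flu and 1.18 ± 0.39 in fc1. Mutant and wt arrays did not overlap in any of these comparisons, and lay closest for flu and wt of AT5G48570 (7.85 and 7.84). The wt arrays of AT5G48570 were unlike here too, and its difference from wt in flu was 0.98 without wt replicate 1 and 0.14 without wt replicate 2, while that in fc1 was 0.76 without wt replicate 2. For AT1G71000 the fc1 difference was 0.41 without wt replicate 1. The mean of the seed markers on the 2 arrays of a group at 120 min was 5.5 and 7.88 in wt, 6.54 and 7.63 in fc2, 9.62 and 7.61 in flu, and 7.64 and 5.28 in fc1, and its part in these differences was not tested.

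The difference between the light response of a mutant and that of wt takes the dark levels into account. At 120 min the response of AT1G71000 exceeded that of wt by 4.46 in fc2, 2.47 in flu and 0.86 in fc1 (each ± 0.23). That of AT2G20560 exceeded wt by 2.15 in fc2, 2.12 in flu and 1.29 in fc1 (each ± 0.35). That of AT5G48570 exceeded wt by 1.46 in fc2 and 0.69 in fc1 and differed by -0.04 in flu (each ± 0.55). Its values in fc1 and flu rest on single arrays: without wt replicate 1 at 120 min they were 1.1 and 0.38, without wt replicate 2 at 120 min 0.26 and -0.47, and the fc1 value was 0.36 without fc1 replicate 2 at 120 min. The flu value, near 0, also turned sign without flu replicate 2 in the dark (0.07) or flu replicate 1 at 120 min (0.08). At 30 min the response of flu differed from that of wt by -3.34 ± 0.55 for AT5G48570 and by -1.08 ± 0.35 for AT2G20560, the latter -0.54 without wt replicate 2 at 30 min. The responses of fc2 and fc1 at 30 min differed from wt by 0.5 and 0.39 for AT5G48570 and by 0.23 and 0.29 for AT2G20560, and all 4 turned negative without wt replicate 1 at 30 min (-0.4, -0.51, -0.3 and -0.25). All these values share the wt arrays.

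Set directly against each other, fc2 and flu were in opposite order for the DnaJ genes at 120 min. The fc2 mean of AT1G71000 was above that of flu by 1.82 ± 0.16 and that of AT5G48570 by 1.15 ± 0.39, whereas for AT2G20560 the log2 difference was -0.42 ± 0.25. At 30 min, fc2 was above flu by 3.48 ± 0.39 for AT5G48570 and by 0.86 ± 0.25 for AT2G20560. Both ferrochelatase mutants differed most for AT1G71000, where fc2 exceeded fc1 by 3.71 ± 0.16 at 120 min.

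To see which genes had a like pattern, Pearson's r over the 12 group means was computed for the 4235 other genes with a range of means of at least 1. These r are descriptions with no test, since all points share the arrays and the step from dark to light. The genes most like AT5G48570 were AT1G30070 (r = 0.984), Hop3 (0.973), which encodes an adaptor between HSP70 and HSP90, AT1G70420 (0.968), Fes1A (0.968), which encodes a nucleotide exchange factor of HSP70, and AT3G07090 (0.963). For AT2G20560 they were SGT1A (0.983), which encodes a co-chaperone of HSP90, the stress-induced zinc-finger repressor gene STZ (0.981), AT4G29780 (0.964), AR781 (0.964) and AT3G10930 (0.959). For AT1G71000 they were the small heat-shock protein genes AT1G52560 (0.981) and, with the lowest r of the 5, AT1G53540 (0.899), and AT4G15420 (0.927), AT3G57760 (0.915) and AT5G40460 (0.905).

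Since r was taken over all 12 groups, likeness in flu at 30 min is part of how these genes were picked. For the genes most like AT5G48570, the change from the dark there was -0.36 ± 0.27 for AT1G30070, 0.62 ± 0.4 for Hop3, 0.3 ± 0.22 for AT1G70420, -0.09 ± 0.27 for Fes1A and 0.8 ± 0.16 for AT3G07090. In wt at 30 min the same genes differed from the dark by 1.74, 1.99, 1.15, 1.8 and 1.72. The low wt array of AT5G48570 was also the lower one for Hop3 (4.97 against 6.85) and Fes1A (7.52 against 8.89). Like AT2G20560, STZ differed in wt by 3.54 ± 0.21 at 30 min and 2.77 ± 0.21 at 120 min, and in flu by 2.84 ± 0.21 and 4.17 ± 0.21. Next to AT1G71000, AT1G52560 was at 8.22 and 8.11 in fc2 at 120 min, 4.91 and 5.82 in flu, 3.65 and 4.2 in fc1 and 3.47 and 3.83 in wt. Its order of genotypes was thus that of AT1G71000, with fc1 and wt overlapping.

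**Figure D3:**
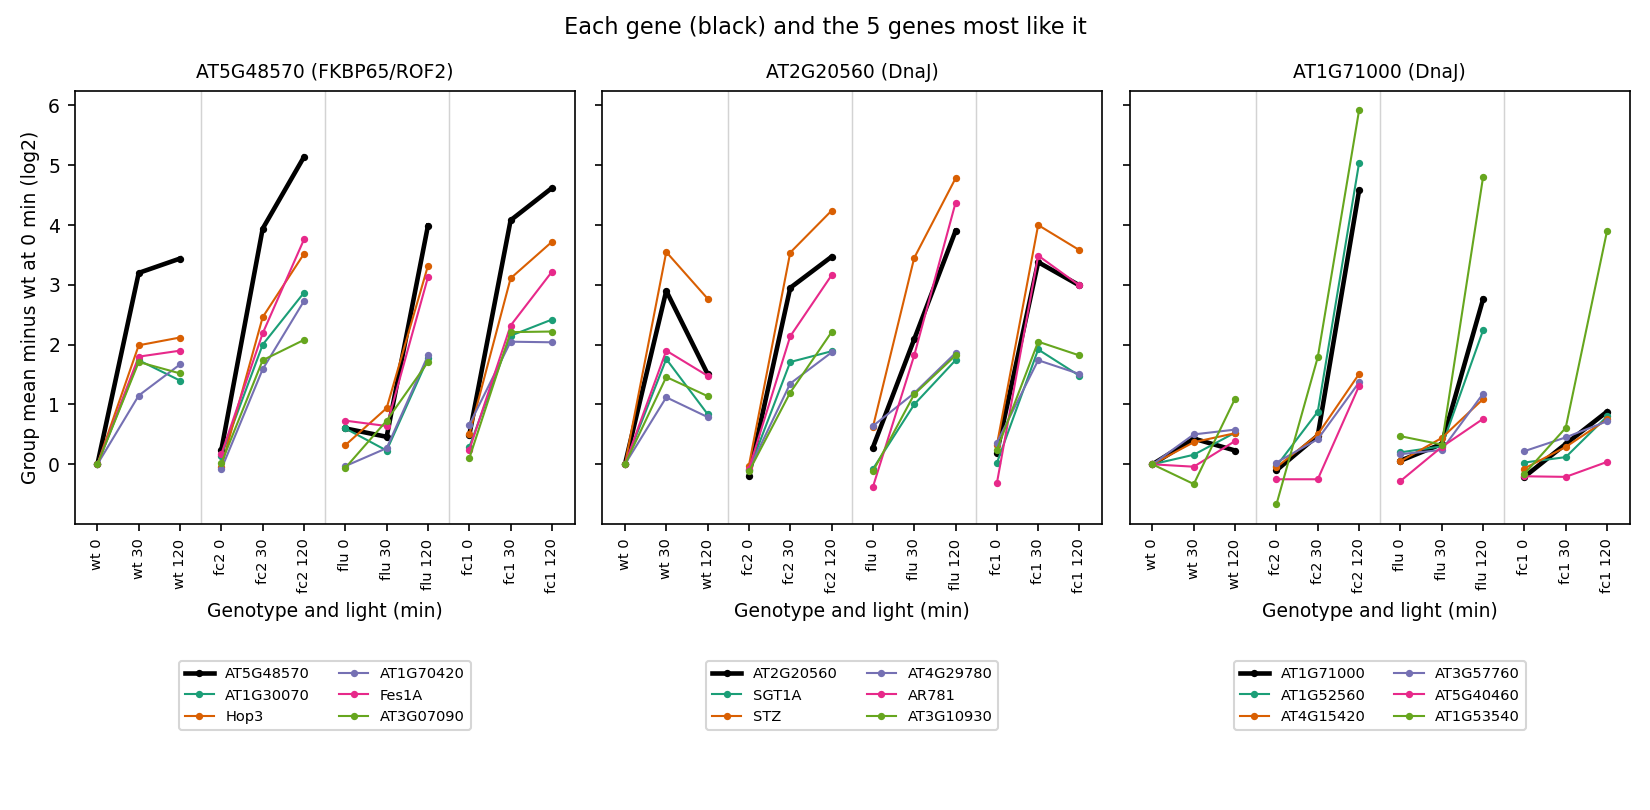
Group means minus the mean of wt at 0 min (log2, vertical axis) over the 12 groups (horizontal axis) for AT5G48570, AT2G20560 and AT1G71000 (black) and the 5 genes with the highest Pearson r to each (colours). The genes beside AT5G48570 differ from their flu dark means by -0.36 to 0.8 in flu at 30 min, those beside AT2G20560 lie 0.55 to 2.84 above theirs, and those beside AT1G71000 have their highest means in fc2 at 120 min.

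The plot of each gene with its most alike genes shows these shapes. A wider view came from the families of the 3 genes, tested with limma over all probe sets and called at a Benjamini-Hochberg adjusted p under 0.05. Of 92 other J-domain genes 55 were measured. They changed about as often as all probe sets: in wt 4 of 55 were called after 30 min (3 higher, 1 lower, 7.27%, against 6.41% of all probe sets) and 17 after 120 min (6 higher, 11 lower, 30.9% against 30.7%). In fc2 1 rose after 30 min (3.02% of all probe sets called), and after 120 min 4 rose and 7 fell (24.8%). In fc1 4 rose after 30 min (7.22%), and 10 rose and 11 fell after 120 min (34.4%). In flu 5 rose and 24 fell after 30 min (48.1%), and 11 rose and 10 fell after 120 min (46.1%). Shares of all probe sets here and below count calls in either direction. Over all probe sets 5384 were higher and 5293 lower in flu after 30 min, and 2644 and 4184 in wt after 120 min. The median change of the J-domain genes lay between -0.19 (flu at 30 min) and 0.01 (fc1 at 30 min), beside medians of 0.06 and -0.02 over all probe sets.

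The split between higher and lower calls depended on the scale. The 2 reference genes were not steady themselves, so the scaled values carry their changes. By limma AT2G28390 was lower in flu after 30 min (-0.39 ± 0.1, adjusted p = 0.0044) and in fc1 after 120 min (-0.38 ± 0.1, adjusted p = 0.0075). The other, AT4G34270, was higher in flu than in wt at 120 min (0.35 ± 0.09, adjusted p = 0.00394). With reference-gene scaling, 19 J-domain genes were higher and 11 lower in flu at 30 min, 11 and 6 in wt at 120 min, 19 and 6 in fc1 at 120 min, 12 and 7 in flu at 120 min, 5 and 4 in fc2 at 120 min, and 2 and 2 in wt at 30 min. Total calls over all probe sets moved too, from 10677 to 13553 in flu at 30 min and from 6828 to 5960 in wt at 120 min. They went from 7641 to 8527 in fc1, from 10246 to 10387 in flu and from 5518 to 4516 in fc2 at 120 min. In wt at 30 min they went from 1425 to 1478. The scaling shifts all probe sets of an array alike, so splits under it, here and below, are not particular to a list. Some counts of J-domain genes also hung on single arrays. Without replicate 2 in the dark, 2 genes were called in wt at 30 min. In fc2 at 120 min 6 were called without replicate 1 in the dark, 5 without replicate 2 in the dark and 6 without replicate 2 at 120 min. In fc1 at 30 min 1 was called without either dark array or without replicate 2 at 30 min.

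Of the other J-domain genes measured, AT3G14200 alone was called higher in all 8 light comparisons. Its log2 signal in the dark lay between 6.99 and 7.26 on the 8 arrays. At 30 min it was 9.38 and 9.97 in wt, 9.25 and 9.33 in fc2, 8.73 and 8.62 in flu, and 9.58 and 9.88 in fc1. As with AT2G20560, flu was the lowest genotype at 30 min, without overlap. It rose by 2.54 ± 0.16 in wt (adjusted p = 4.06e-09), 2.14 ± 0.16 in fc2 (6.04e-08), 1.55 ± 0.16 in flu (3.81e-07) and 2.5 ± 0.16 in fc1 (3.7e-09). After 120 min its rise was 0.8 ± 0.16 in wt (adjusted p = 0.000634), 1.54 in fc2 (5.56e-07), 1.68 in flu (4.48e-08) and 1.26 in fc1 (3.78e-06), so the wt value was the lowest, again as with AT2G20560. AT2G20550, the J-domain gene whose locus number is next to AT2G20560, was called in 1 light comparison, flu at 120 min (0.6 ± 0.17, adjusted p = 0.0058, but 0.0787 without flu replicate 2 in the dark and 0.127 without flu replicate 2 at 120 min).

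Among the J-domain genes that fell in flu were 2 of the endoplasmic reticulum. ATERDJ2B, a membrane J-protein of the protein-translocation machinery, fell after 30 min (-1.91 ± 0.24, adjusted p = 4.84e-06), from 5.4 and 5.73 to 3.48 and 3.83. ATERDJ3B, a luminal partner of the HSP70 BiP, fell too (-1.75 ± 0.24, adjusted p = 1.44e-05). AT1G72070 fell in flu after 120 min (-2.17 ± 0.17, adjusted p = 6.41e-09), and it fell there already after 30 min (-1.46 ± 0.17, adjusted p = 2.64e-06). In wt after 120 min the largest falls were those of AT3G11450 (-1.17 ± 0.19, adjusted p = 0.00013), AT1G56300 (-1.04 ± 0.13, adjusted p = 5.1e-06) and AT5G05750 (-0.88 ± 0.1, adjusted p = 1.5e-06). AT5G03030 rose in fc2 after 120 min (1.18 ± 0.12, adjusted p = 7.7e-07).

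Against wt at 120 min, 6 J-domain genes were higher and 1 lower in fc2 (17.2% of all probe sets called), 16 higher and 5 lower in flu (46.6%), and 7 higher and 2 lower in fc1 (9.25%). With reference-gene scaling these splits were 3 and 3, 11 and 10, and 4 and 2, beside 3732, 9453 and 2390 of 22217 probe sets called. The total of 9 in fc1 was 22 without wt replicate 1, 0 without wt replicate 2, 6 without fc1 replicate 1 and 0 without fc1 replicate 2. The total of 7 in fc2 was 4 without fc2 replicate 1. AT3G14200 was higher than wt in fc2 (0.76 ± 0.16, adjusted p = 0.00199) and flu (0.88 ± 0.16, adjusted p = 0.00012).

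Of 22 other FKBP genes 12 were measured, and AT3G25230, the close relative of AT5G48570 known as ROF1, and AT5G48580 had no probe set of their own. None of the 12 was called higher by limma in wt, fc2, flu or fc1 after 30 min, where at an unadjusted p under 0.05 none was higher in wt, fc2 or flu and 1 in fc1. Calls of a higher level were rare over all 22217 probe sets too in wt (793), fc2 (427) and fc1 (817) at that time. No call among 12 genes is near those shares, while in flu 5384 probe sets were called higher. In flu 9 of 12 fell after 30 min and 9 of 12 after 120 min, beside 48.1% and 46.1% of all probe sets called in either direction. Of the 22217 probe sets 5293 were called lower in flu after 30 min and 4855 after 120 min. The median change was -0.75 and -1.59. With reference-gene scaling 7 were lower and 1 higher after 30 min, and 9 lower and 2 higher after 120 min. In wt 1 was called lower after 30 min, AT3G55520 (-0.37 ± 0.11, adjusted p = 0.0434), a call lost without any 1 of the 4 arrays (adjusted p between 0.0833 and 0.288) and with a replicate block (0.057).

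The FKBPs that fell in flu include proteins of the chloroplast thylakoid lumen, the space inside the photosynthetic membranes. AT2G43560 was at 10.03 and 10.14 in dark flu, at 8.66 and 8.32 after 30 min and at 6.76 and 6.52 after 120 min, a fall of -3.44 ± 0.14 (adjusted p = 6.16e-13). AT3G10060 fell in flu after 120 min (-2.32 ± 0.18, adjusted p = 2.97e-09) and rose in wt (1.17 ± 0.18, adjusted p = 4.75e-05) and fc1 (1.5 ± 0.18, adjusted p = 2.1e-06). AT1G20810 (-2.1 ± 0.12, adjusted p = 8.74e-11) and AT4G26555 (-2 ± 0.1, adjusted p = 9.4e-12) fell in flu after 120 min as well. The direction in flu at 120 min was thus opposite to that of AT5G48570, which was higher by 3.4.

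After 120 min, 2 FKBP genes rose and 3 fell in wt (30.7% of all probe sets called), 4 fell in fc2 (24.8%), and 4 rose and 4 fell in fc1 (34.4%). With reference-gene scaling these became 3 higher and 1 lower in wt, 2 lower in fc2, and 6 higher and 2 lower in fc1. The wt total was 3 without replicate 2 in the dark or replicate 1 at 120 min. The fc2 total was 1 without replicate 1 of either time and 2 without replicate 2 of either time. Against wt at 120 min, 3 of 12 were lower in fc2 (17.2%), or 7 with reference-gene scaling and 1 without wt replicate 1, and 9 of 12 were lower in flu (46.6%). In fc1 limma called 0 (9.25% of all probe sets), with 1 higher and 1 lower at an unadjusted p under 0.05 and 1 called lower under either other scaling.

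**Figure D4:**
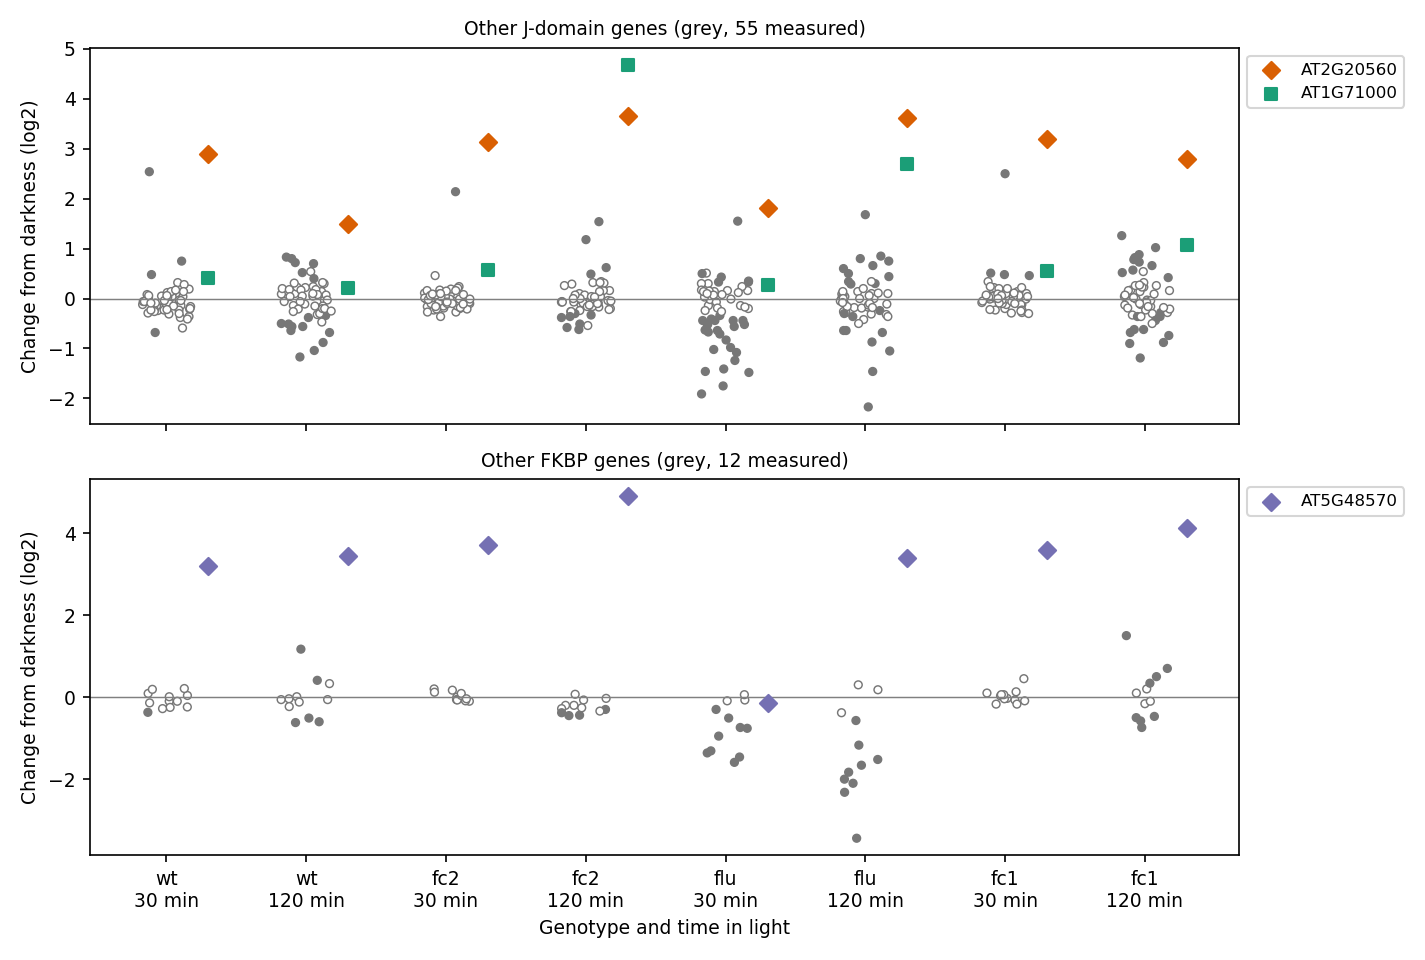
Log2 change from 0 min (vertical axis) in each genotype at 30 and 120 min (horizontal axis) for the other J-domain genes (top, 55) and other FKBP genes (bottom, 12), filled grey where called at an adjusted p under 0.05 and open where not, beside AT2G20560, AT1G71000 and AT5G48570 (coloured). The FKBP genes of flu lie mostly below 0, with a median of -1.59 at 120 min, while AT5G48570 is at 3.4.

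The plot of the families sets the 3 genes beside their relatives. Cyclophilins are the other large class of peptidyl-prolyl isomerases, and 8 of 17 were measured. In flu 5 fell after 30 min and 6 after 120 min (48.1% and 46.1% of all probe sets called). Under reference-gene scaling 4 were lower after 30 min, and 5 lower and 1 higher after 120 min. Among those that fell was AT1G74070 after 120 min (-2.52 ± 0.17, adjusted p = 5.69e-10), which rose in wt (0.97 ± 0.17, adjusted p = 0.00021) and fc1 (1.68 ± 0.17, adjusted p = 3.29e-07). AT2G21130 rose in wt after 30 min (0.92 ± 0.15, adjusted p = 0.000413) and 120 min (0.88 ± 0.15, adjusted p = 0.00014). It also rose in fc1 after 30 min (0.76 ± 0.15, adjusted p = 0.00219) and 120 min (0.8 ± 0.15, adjusted p = 0.000297). In fc2 it rose after 120 min (1.39 ± 0.15, adjusted p = 1.04e-06), where its difference from wt was 0.43 ± 0.15 (adjusted p = 0.054). After 120 min 2 cyclophilin genes rose and 3 fell in wt (62.5% of the list against 30.7% of all probe sets), 1 rose and 2 fell in fc2 (37.5% against 24.8%), and 2 rose and 3 fell in fc1 (62.5% against 34.4%). With reference-gene scaling the wt split was 2 higher and 2 lower, and the fc1 split 3 higher and 1 lower. AT4G34960 was among those that fell in wt (-1.16 ± 0.17, adjusted p = 4.86e-05).

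The chaperones with which J-proteins and FKBP65 work were thinly covered. Of 30 genes for HSP70 and its exchange factors 6 were measured, of 22 for HSP90, HSP100, HSP60 and their partners 4, and of 25 for heat-shock factors and cofactors 0. HSFA2, HSP90.1, HSP101, MBF1C, BAG6 and the HSP70 gene AT3G12580 had no probe set of their own. Of the 6 HSP70 and exchange factor genes, after 30 min 3 rose in wt (6.41% of all probe sets called), 2 in fc2 (3.02%) and 3 in fc1 (7.22%), while in flu 2 rose and 3 fell (48.1%). After 120 min 3 rose in wt (30.7%), 3 in fc2 (24.8%) and 4 in fc1 (34.4%), and in flu 3 rose and 1 fell (46.1%). Fes1A rose by 1.8 ± 0.27 in wt after 30 min (adjusted p = 0.000166) and by 3.6 ± 0.27 in fc2 after 120 min (adjusted p = 1.01e-08), while its value in flu after 30 min was -0.09 ± 0.27 (adjusted p = 0.805). The cytosolic HSP70 gene AT3G09440 rose by 1.76 ± 0.15 in wt after 30 min (adjusted p = 1.68e-07). It was also called higher then in fc2 (1.17), fc1 (1.64) and flu (0.38, but 0.23 without flu replicate 1 in the dark). Hsp70-2 rose after 30 min in flu (1.11 ± 0.15, adjusted p = 1.07e-05), wt (0.92 ± 0.15, adjusted p = 0.000487) and fc1 (0.88 ± 0.15, adjusted p = 0.000698). In fc2 its change was 0.46 ± 0.15 (adjusted p = 0.162). Against wt at 120 min, 1 of the 6 was higher and 1 lower in fc2 (17.2%), 1 higher and 2 lower in flu (46.6%), and 3 higher in fc1 (9.25%). Fes1A was above wt in fc2 (1.86 ± 0.27, adjusted p = 6.94e-05), flu (1.24 ± 0.27, adjusted p = 0.000796) and fc1 (1.32 ± 0.27, adjusted p = 0.00525, with a difference of 1.2 without wt replicate 2). Hsp70-2 was below wt in fc2 (-0.86 ± 0.15, adjusted p = 0.000555) and flu (-0.5 ± 0.15, adjusted p = 0.0115). The latter difference was -0.27 without wt replicate 2. In flu at 30 min the HSP70 total of 5 was 4 (2 higher, 2 lower) under either other scaling, 3 without replicate 1 in the dark, 2 without replicate 2 in the dark and 1 without replicate 2 at 30 min. The 4 measured genes of the list for HSP90, HSP100, HSP60 and their partners were Hop1, Hop2, Hop3 and AT4G02450, all of them for partners. Hop3, picked above by its likeness to AT5G48570, was the only one called higher in wt after 30 min (6.41% of all probe sets called) and 120 min (30.7%). The same held in fc2 (3.02% and 24.8%), in fc1 after 30 min (7.22%) and in flu after 120 min (46.1%). In fc1 after 120 min 2 were higher, Hop3 and Hop2 (34.4%). In flu after 30 min 2 were lower and 0 higher by limma (48.1%, 0 higher also at an unadjusted p under 0.05). With reference-gene scaling 1 was higher and 2 lower in flu after 30 min, and 2 were higher in wt and in flu after 120 min. In wt after 120 min 2 were called without replicate 2 at that time, and in fc1 after 120 min 1 was called without either dark array or without replicate 2 at 120 min. Hop3 rose by 1.99 ± 0.4 in wt after 30 min (adjusted p = 0.00387, but 0.0519 without wt replicate 2 in the dark and 0.0523 without wt replicate 2 at 30 min) and by 3.57 ± 0.4 in fc2 after 120 min (adjusted p = 2.27e-06). In flu Hop3 differed by 0.62 ± 0.4 after 30 min (adjusted p = 0.223) and rose by 3 ± 0.4 after 120 min (adjusted p = 5.28e-06).

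Of 20 small heat-shock protein genes 11 were measured. At 30 min 45.5% were called in wt (6.41% of all probe sets), 72.7% in fc2 (3.02%), 45.5% in flu (48.1%) and 54.5% in fc1 (7.22%), and at 120 min 45.5% in wt (30.7%), 72.7% in fc2 (24.8%), 81.8% in flu (46.1%) and 63.6% in fc1 (34.4%). In wt 5 rose at each time, in fc2 8 at each time, in fc1 6 after 30 min and 7 after 120 min, and in flu 3 rose and 2 fell after 30 min and 8 rose and 1 fell after 120 min. In flu at 30 min 6 were higher and 2 lower with reference-gene scaling. The median change after 120 min was 4.28 in fc2, 1.36 in flu, 0.86 in fc1 and 0.52 in wt. Against wt at 120 min, 8 were higher in fc2 (17.2% of all probe sets called), 8 higher and 1 lower in flu (46.6%), and 4 higher in fc1 (9.25%), where the total was 2 without wt replicate 2 or fc1 replicate 2.

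Single small heat-shock protein genes differed in timing and genotype. AT1G54050 rose in flu after 30 min (2.22 ± 0.24, adjusted p = 6.49e-07) and in wt (3.15 ± 0.24, adjusted p = 5.04e-08), as AT2G20560 was higher in both. AT2G29500, which encodes a cytosolic class I protein, rose in wt after 30 min (1.91 ± 0.25, adjusted p = 4.65e-05) and differed in flu by 0.02 ± 0.25 (adjusted p = 0.956), as AT5G48570 differed little in flu. AT1G53540, another class I gene, was at 10.56 and 10.54 in fc2, 9.39 and 9.46 in flu, 8.41 and 8.64 in fc1 and 5.7 and 5.76 in wt after 120 min, the same order as AT1G71000. It rose by 6.59 ± 0.2 in fc2 (adjusted p = 8.58e-14) and by 1.1 ± 0.2 in wt (adjusted p = 0.000258). AT1G52560 rose by 5.08 ± 0.22 in fc2 (adjusted p = 8.05e-12), and its value in wt was 0.52 ± 0.22 (adjusted p = 0.0775). AT5G37670 rose in wt after 30 min (2.3 ± 0.19, adjusted p = 1.76e-07) and was back at its dark level after 120 min (-0.01 ± 0.19), while in fc2 it rose by 4.28 ± 0.19 after 120 min (adjusted p = 1.31e-11). AT5G51440 rose after 120 min in all genotypes, by 3.34 ± 0.3 in wt (adjusted p = 9.65e-08) and 5.16 ± 0.3 in fc2 (adjusted p = 3.94e-10).

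**Figure D5:**
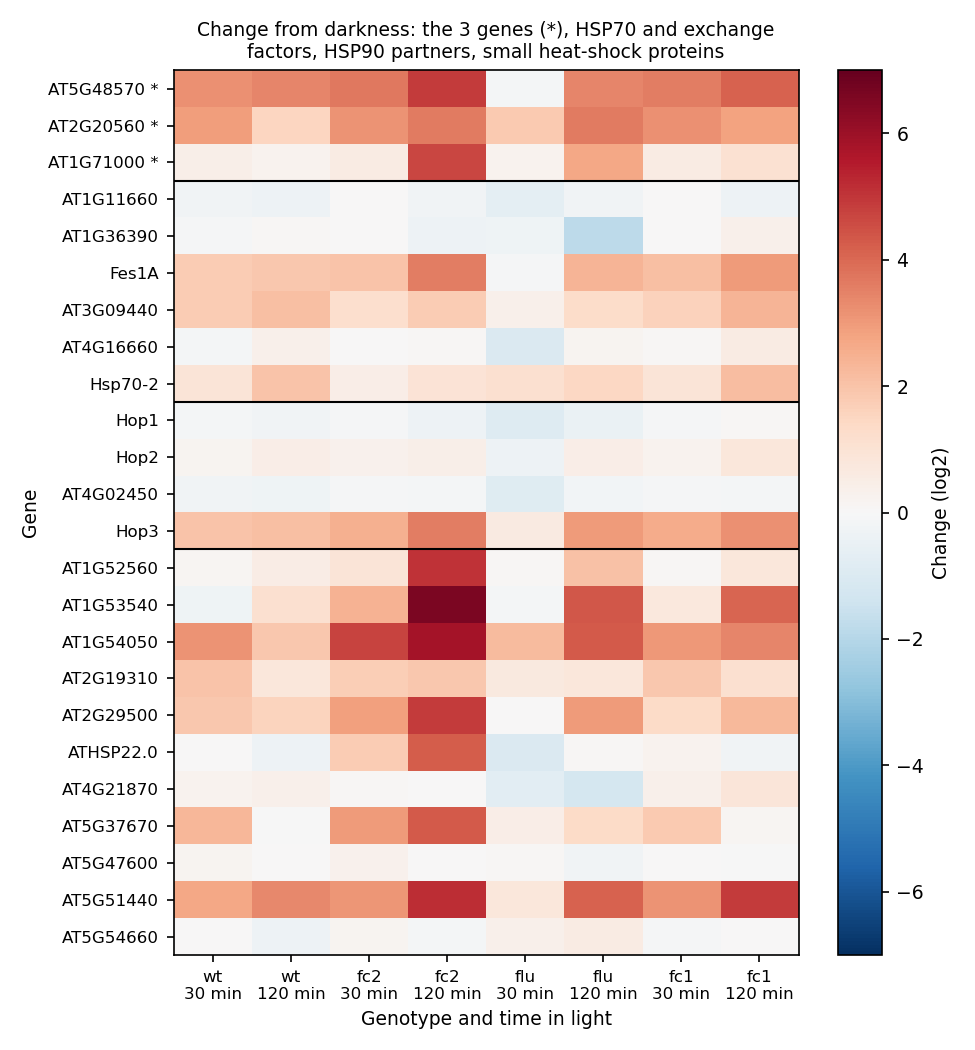
Log2 change from 0 min (colour, red higher and blue lower) in each genotype at 30 and 120 min (columns) for AT5G48570, AT2G20560 and AT1G71000 (starred) and all measured genes for HSP70 and its exchange factors, HSP90 partners and small heat-shock proteins. In flu at 30 min AT5G48570, Fes1A and AT2G29500 are near 0, while AT1G54050 (2.22) is already higher.

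In the colour map of the partner genes, AT1G71000 shares with AT1G52560 and AT1G53540 the high values of fc2 and flu at 120 min. These 2 genes were picked by their likeness to it over the same means. A rise there was not theirs alone. Of the 11 small heat-shock protein genes, which include these 2, 8 were called higher in fc2 after 120 min (24.8% of all probe sets called) and 8 in flu (46.1%). At that time 7 were also called higher in fc1 (34.4%) and 5 in wt (30.7%). In fc1 at 120 min AT1G53540 differed from the dark by 4.06, near its 4.33 in flu, and AT1G71000 by 1.08.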

How the data were processed

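Biotin-labelled cRNA from whole seedlings was hybridised to 24 Affymetrix arrays, as the labels' protocols state. The authors deposited log2 signals. Per the submitters' processing notes these come from RMA, a method that corrects background, normalizes and summarises probes, in a version not given in the sources used here. They were used as they stand. Names came from the platform table and the TAIR10.1 gene table (13171 probe sets with 1 gene). Where a gene had several probe sets, that with the highest mean stood for it.

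A mean per group was fitted to the 24 arrays in limma 3.58.1 under R 4.3.3, with moderated variances, and p-values were two-sided and Benjamini-Hochberg adjusted over 22217 probe sets within each of 17 contrasts. The fit was tested on simulated data. Tables and figures used Python 3.11.15, pandas 2.3.3 and matplotlib 3.10.9.

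The 3 genes and the family lists were chosen with earlier results of these data known, so the 3 genes have no p, and a list is described by its counts beside those of all probe sets. Named besides them are their nearest relatives and heat-shock genes where measured, up to 4 called genes with the largest change per list and contrast, followed across contrasts, and the 5 genes with the highest r. Alternatives were scaling to AT4G34270 and AT2G28390 as reference genes, quantile normalization, a replicate block, leaving out each array and, for the lists, leaving out the dimmest 40% of probe sets, trend and robust moderation and the mean of a gene's probe sets. Depth has no meaning for arrays. The number of arrays limits precision.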

Additional observations from a re-analysis of the deposited data

Results flagged for a closer look

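For the genes below, every array of wt moved one way from the dark and every array of a mutant the opposite way. The differences between the changes were not tested. Some of the opposite signs rest on changes near 0. After 30 min AT1G20810 changed by 0.04 in fc2 and 0.03 in fc1, and AT1G74070 by -0.05 ± 0.17 in wt. No such pattern occurred for AT5G48570, AT2G20560 or AT1G71000.

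Among the genes most like AT5G48570, AT1G30070 changed in flu by 2.1 less than in wt after 30 min, a difference of -2.1 (-0.36 against 1.74). Among the FKBP genes, AT3G10060 differed from wt by -1.55 in flu after 30 min, and by -1.5 in fc2 and -3.48 in flu after 120 min. AT2G43560 differed by -0.78 in fc2 and -3.78 in flu after 120 min, and AT1G20810 by 0.32 in fc2 and 0.3 in fc1 after 30 min. The cyclophilin gene AT1G74070 differed by 0.26 in fc1 after 30 min and by -3.49 in flu after 120 min.

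Among the J-domain genes, AT1G56300 differed by -1.34 in flu after 30 min and by 1.38 in fc2 after 120 min, AT5G05750 by 0.96 in flu after 120 min, AT2G33735 by -1.27 in flu after 30 min and 0.32 in fc1 after 120 min, and AT2G20550 by 0.34 in fc2 and 0.42 in flu after 30 min. The small heat-shock protein gene AT1G53540 differed by 2.79 in fc2 and 1.09 in fc1 after 30 min. Its wt change there was -0.32.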

How the results depend on the processing

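Under the scaling and block alternatives, 120 differences of the 3 genes moved by less than the spread between replicates and 6 by more. Reference-gene scaling, which shifted the median of all probe sets by over 0.1 in several contrasts (from 0.06 to 0.32 in flu at 30 min, from 0 to 0.25 in fc1 at 120 min), gave AT1G71000 changes of 0.44 in wt and 1.34 in fc1 at 120 min and 0.54 in flu at 30 min, and differences from wt of 4.16 in fc2 at 120 min and 0.17 in flu at 30 min, which quantile normalization put at -0.28. It gave FKBP totals of 2 (fc2 at 120 min) and, against wt at 120 min, 7 (fc2) and 1 (fc1, also 1 with quantile normalization). Quantile normalization gave 4 J-domain genes for fc2 against wt at 120 min. Replicate numbers did not pair the arrays: replicate differences of 66 pairs of groups correlated at -0.54 to 0.4 (median -0.01). With the replicate block, total calls in wt at 30 min went from 1425 to 1368, and the FKBP total there from 1 to 0. Leaving out single arrays gave these ranges. For AT2G20560: 2.36 to 3.44 (wt at 30 min), and against wt at 30 min -0.49 to 0.59 (fc2), -1.34 to -0.26 (flu) and -0.06 to 1.02 (fc1). For AT1G71000: -0.01 to 0.47 (wt at 120 min), 0.3 to 0.86 (fc2 at 30 min), -0.22 to 0.33 (fc2 against wt at 30 min), and against wt at 120 min 4.12 to 4.6 (fc2), 2.29 to 2.77 (flu) and 0.41 to 0.88 (fc1). For AT5G48570: 2.3 to 4.1 (wt at 30 min), and against wt at 30 min -0.16 to 1.65 (fc2), -3.64 to -1.84 (flu) and -0.01 to 1.78 (fc1). J-domain totals ranged from 2 to 3 (wt at 30 min), 5 to 8 (fc2 at 120 min), 1 to 3 (fc1 at 30 min), and against wt at 120 min 4 to 8 (fc2) and 0 to 22 (fc1). FKBP totals were 0 (wt at 30 min), 3 to 6 (wt at 120 min), 1 to 2 (fc2 at 120 min) and 1 to 3 (fc2 against wt at 120 min). The causes were not tested. AT1G71000 lay near the lower quartile in the dark, which limits its small differences.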
